A study of Mus musculus with 6 samples.

Results

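The 5 genes that encode the NF-kB subunits, Nfkb1, Nfkb2, Rel, Rela and Relb, were followed across mouse macrophages given a control siRNA or an siRNA against Smyd5 or Phf2 and then KLA or vehicle. They were taken by gene symbol from a table of 23282 symbols, with the transcript of the highest mean kept for each, and they filled 7 transcript rows. All 5 reached a mean of at least 10 reads over the libraries, the minimum for testing, as did 7995 genes in all. Poly(A) RNA came from macrophages drawn from the peritoneal cavity after a thioglycollate injection, of female C57BL/6 mice. Cells had the siRNA for 48 hours and then 100 ng per ml KLA, named in the labels as an LPS in the form of Kdo2-Lipid A, or vehicle, for 4 hours. The groups were siSmyd5 with KLA, siSmyd5 with vehicle, siPhf2 with KLA, siPhf2 with vehicle, siCtl with KLA and siCtl with vehicle, and each was 1 library. The labels do not give the number of animals or say whether the libraries came from separate cultures.

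NF-kB is a family of dimeric transcription factors held in the cytoplasm of resting cells by IkB proteins. Lipid A is sensed by TLR4, whose adaptors lead to the IKK kinase complex; IKK marks IkB for destruction, and the dimers then enter the nucleus. Rela (p65), Rel (c-Rel) and Relb carry transactivation domains. Nfkb1 and Nfkb2 encode the precursors p105 and p100, which act as inhibitors and are processed to the DNA-binding subunits p50 and p52. The Rela and p50 pair is the classical dimer of inflammatory responses in macrophages, while Relb and p52 pair in the alternative pathway.

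The libraries held 420141 to 1429520 reads. The 2 siPhf2-labelled libraries were the shallowest, and the ribosomal RNA precursor Rn45s took 71.6% (KLA) and 66.7% (vehicle) of their reads, against at most 1.20% in the other 4; 119136 and 192421 reads remained without it. The scaling printed in the headers of the siPhf2 and siCtl columns matched the values of the other column of the same agent, so libraries are called by their labels. Levels are given in TMM-scaled CPM, which are reads scaled to a common library total of 1000000 that is adjusted by the trimmed mean of log ratios between libraries. Smyd5 stood at 14.4 CPM in the siSmyd5-labelled KLA library, against 13.1 in the siCtl-labelled one, and at 6.04 with vehicle, against 18.4. Smyd5 was thus lower under its own label with vehicle and not with KLA, on 9 to 44 reads, and it had 0 and 3 reads in the siPhf2-labelled KLA and vehicle libraries. Phf2 stood at 58.6 and 120.002 CPM in the siPhf2-labelled KLA and vehicle libraries, on 8 and 29 reads, against 54.1 and 47.2 in the siCtl-labelled ones, on 120 and 113 reads. On this scale Phf2 was not lower under the siPhf2 label. All 10 macrophage markers had reads in every library. In these bulk libraries fewer cells of a type and less RNA per cell cannot be told apart.

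KLA raised the mRNA of all 5 subunit genes. Nfkb2, Nfkb1 and Rel rose 9.47-fold, 8.81-fold and 8.64-fold, Relb rose 6.32-fold, and Rela rose 2.47-fold, averaged over the siRNA labels. These values come from an additive edgeR quasi-likelihood fit of siRNA and agent over the 6 libraries, in which 11.1% of all tested genes were called higher, 4.57% lower and 15.7% either way at a Benjamini-Hochberg adjusted p under 0.05. Its 2 residual degrees of freedom come from departures from additive siRNA and agent effects, since no group had a replicate. Dispersion is moderated over all tested genes. The p-values speak only of these 6 libraries and do not measure spread between replicates. Ranked by log2 fold among the 7995 genes, Nfkb2 stood at 111, Nfkb1 at 121, Rel at 123, Relb at 156 and Rela at 447. The median over the 5 was 3.11 on the log2 scale, against −0.03 over all tested genes.

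Nfkb1 (NM_008689, mm9 chr3:135247619-135354511, minus strand), which encodes p105 and p50, stood at 593, 1429 and 539.9 CPM with KLA in the siSmyd5-, siPhf2- and siCtl-labelled libraries, against 65.8, 137 and 70.1 with vehicle. The lowest KLA library was 3.95 times the highest vehicle library, and both siPhf2-labelled libraries stood above the other libraries of the same agent. The averaged log2 fold was 3.14 (standard error 0.20, edgeR adjusted p 9.32e-10). The values rest on 195 to 1197 reads with KLA and 33 to 168 with vehicle.

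Nfkb2 (NM_001177370, mm9 chr19:46380420-46386580, plus strand), which encodes p100 and p52, stood at 294, 813 and 319 with KLA under the siSmyd5, siPhf2 and siCtl labels, against 24.8, 95.2 and 37.6 with vehicle. KLA and vehicle libraries did not overlap, with the lowest KLA library at 3.09 times the highest vehicle library, and the siPhf2-labelled libraries were again the highest of each agent. The averaged log2 fold was 3.24 (standard error 0.21, edgeR adjusted p 1.06e-09). Its other transcript rows held the same reads with vehicle and 1 read fewer in each KLA library.

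Rel (NM_009044, mm9 chr11:23641729-23670970, minus strand), the c-Rel subunit, stood at 170, 191 and 156 with KLA under the siSmyd5, siPhf2 and siCtl labels, against 13.4, 33.1 and 20.9 with vehicle. The KLA libraries lay close together, and the lowest of them was 4.71 times the highest vehicle library, the widest gap of the 5 genes. The averaged log2 fold was 3.11 (standard error 0.23, edgeR adjusted p 4.60e-09). The siPhf2-labelled vehicle value rests on 8 reads.

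Rela (NM_009045, mm9 chr19:5637490-5648130, plus strand), the p65 subunit, stood at 256, 293 and 185 with KLA under the siSmyd5, siPhf2 and siCtl labels, against 93.3, 82.8 and 96.0 with vehicle. The vehicle libraries differed little, and the lowest KLA library was 1.93 times the highest vehicle library, the narrowest gap of the 5. The averaged log2 fold was 1.30 (standard error 0.20, edgeR adjusted p 9.64e-05). It stayed past the threshold in all 17 alternatives, in which adjusted p was at most 0.0413.

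Relb (NM_009046, mm9 chr7:20191571-20214787, minus strand), the partner of p52, stood at 81.5, 161 and 90.7 with KLA under the siSmyd5, siPhf2 and siCtl labels, against 16.1, 20.7 and 12.5 with vehicle. No KLA library overlapped a vehicle library, with the lowest KLA value at 3.94 times the highest vehicle value. The averaged log2 fold was 2.66 (standard error 0.23, edgeR adjusted p 5.98e-08). Relb was the least covered of the 5, with 5 reads in the siPhf2-labelled vehicle library and 201 in the siCtl-labelled KLA library. In all 5 genes the 3 KLA libraries thus lay above the 3 vehicle libraries, as did 10.7% of the tested genes, while 8.67% had all KLA libraries below. The same 5 of 5 rose without both siPhf2-labelled libraries, with a median log2 fold of 3.03.

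**Figure D1:**
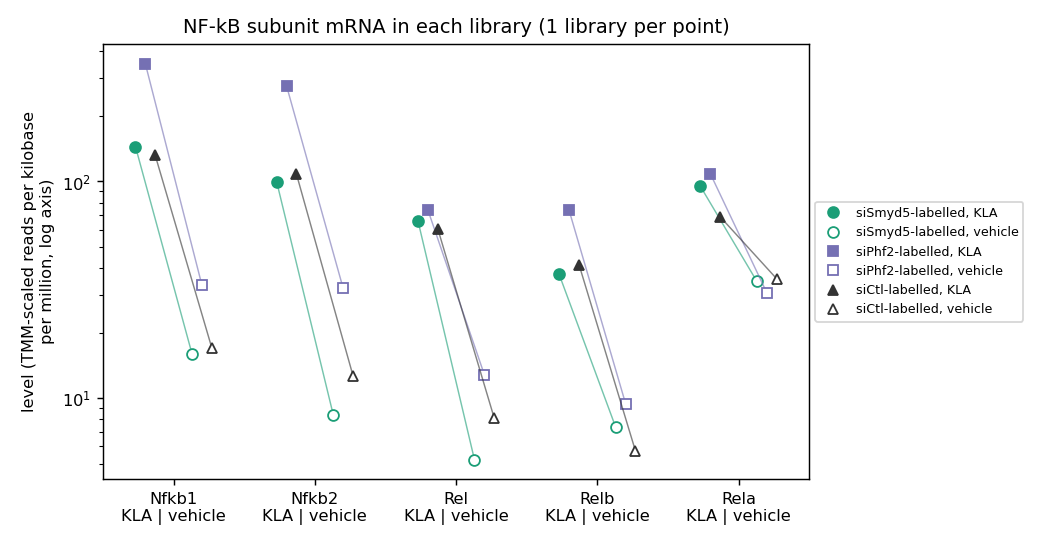
TMM-scaled CPM per kilobase of transcript (log axis) of each NF-kB subunit gene in the 6 libraries, with 1 point per library, coloured by siRNA label, KLA left of vehicle, and a line joining the libraries of a label. In every gene the 3 KLA points lie above the 3 vehicle points, with the smallest gap in Rela.

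Within each siRNA label, KLA was compared with vehicle as 1 library against 1, with no test; a ratio was called by size at 2-fold or more with an exact 95% interval, which covers counting error only, excluding equality. Of the 5 genes 5 were called higher under the siSmyd5 label (9.14% of all tested genes, with 4.03% called lower), 5 under siPhf2 (8.38%, with 6.98% lower) and 4 under siCtl (7.43%, with 3.19% lower). The one not called was Rela under the siCtl label, at 1.93-fold (1.64 to 2.28), just under the bound. Rela stood at 2.75-fold (2.25 to 3.36) under siSmyd5 and 3.54-fold (2.02 to 6.39) under siPhf2.

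With KLA, Nfkb1 stood at 9.02 times its vehicle level under siSmyd5 (7.31 to 11.2), 10.5 times under siPhf2 (7.21 to 15.6) and 7.70 times under siCtl (6.55 to 9.11). Nfkb2 stood at 11.8 times under siSmyd5 (8.44 to 17.0), 8.55 under siPhf2 (5.42 to 14.0) and 8.49 under siCtl (6.81 to 10.7). The intervals of each of these genes overlap between labels. Rel stood at 12.6 times under siSmyd5 (7.99 to 21.1), 5.76 under siPhf2 (2.53 to 14.7) and 7.48 under siCtl (5.55 to 10.3). Relb stood at 5.06 times under siSmyd5 (3.24 to 8.23), 7.79 under siPhf2 (2.88 to 26.3) and 7.24 under siCtl (4.92 to 11.0). With 1 library per group, whether the KLA response differs between siRNA labels cannot be tested.

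The upstream sequence of the members is shown because they rose together and several are classical NF-kB target genes. RefSeq promoter windows on GRCm38.p6 were at hand for 3 of the 5, Nfkb2, Rel and Rela; the 250 bases before the start are printed 5′ to 3′ on the strand of the gene, and capitals mark matches to the kB consensus, the DNA element bound by NF-kB dimers, on either strand. Nfkb2 has 3 such windows, whose starts are spaced like those of its 3 deposited transcripts (0, 958 and 1193 bases after the first), so window 3 stands before the transcript measured here and window 1 before NM_001177369; the reads do not tell these starts apart. Window 3 (chr19:46305680-46305929) is shown, and window 1 (chr19:46304487-46304736) because it holds the most matches, with those of Rel (chr11:23770970-23771219) and Rela (chr19:5637291-5637540).
Nfkb2 window 3: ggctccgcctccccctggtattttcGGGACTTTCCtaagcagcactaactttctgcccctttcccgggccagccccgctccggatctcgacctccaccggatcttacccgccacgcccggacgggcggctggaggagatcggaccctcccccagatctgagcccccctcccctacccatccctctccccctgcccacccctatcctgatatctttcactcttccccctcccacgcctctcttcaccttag
Nfkb2 window 1: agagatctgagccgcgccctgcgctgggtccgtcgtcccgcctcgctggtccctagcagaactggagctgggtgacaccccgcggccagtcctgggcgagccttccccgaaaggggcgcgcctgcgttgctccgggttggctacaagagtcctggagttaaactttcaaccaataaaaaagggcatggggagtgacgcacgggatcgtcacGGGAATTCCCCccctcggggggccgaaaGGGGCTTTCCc
Rel: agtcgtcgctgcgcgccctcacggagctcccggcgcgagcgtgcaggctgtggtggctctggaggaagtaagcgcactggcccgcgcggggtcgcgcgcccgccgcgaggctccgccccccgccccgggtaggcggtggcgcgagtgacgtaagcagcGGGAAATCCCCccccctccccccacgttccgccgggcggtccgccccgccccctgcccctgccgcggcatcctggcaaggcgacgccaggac
Rela: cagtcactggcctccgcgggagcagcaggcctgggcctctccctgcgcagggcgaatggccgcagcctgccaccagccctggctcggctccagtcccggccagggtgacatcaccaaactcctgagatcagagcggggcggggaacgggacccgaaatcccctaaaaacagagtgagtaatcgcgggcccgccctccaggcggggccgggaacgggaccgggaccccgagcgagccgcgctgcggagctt
Window 3 of Nfkb2 holds GGGACTTTCC at 225 to 216 bases before the start. Window 1 holds the overlapping matches GGGAATTCCC and GGAATTCCCC at 39 to 29 bases before its start, and GGGGCTTTCC at 11 to 2, and window 2, not printed, holds GGAATGTCCC at 236 to 227. The Rel window holds the overlapping matches GGGAAATCCC and GGAAATCCCC at 92 to 82 bases before the start. The Rela window holds no match to the consensus on either strand. The consensus was found in 3.90% of 32851 RefSeq windows of this length, with both strands counted and matches allowed to overlap. A match is a description of these letters and not evidence of binding.

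Within a library, levels of different genes were compared as reads per kilobase of the transcript length in the deposited table, a comparison that does not depend on how libraries are scaled. It does depend on the length used, and whether reads were counted on whole transcripts or on coding sequence is not stated. With vehicle, Rela was the most abundant subunit mRNA under the siSmyd5 and siCtl labels and not under siPhf2. Its share of the reads per kilobase of the 5 genes fell to 21.5% with KLA in the siSmyd5-labelled library, against 48.3% with vehicle. The share was 12.3% with KLA and 25.9% with vehicle under siPhf2, and 16.7% with KLA and 44.9% with vehicle under siCtl. Nfkb1 was the largest share in all 3 KLA libraries, at 32.7%, 39.6% and 32.1% under siSmyd5, siPhf2 and siCtl, against 22.4%, 28.1% and 21.6% with vehicle. Nfkb2 took 22.5%, 31.3% and 26.3% with KLA, against 11.7%, 27.2% and 16.1% with vehicle.

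Rel took 14.9%, 8.40% and 14.8% with KLA under the siSmyd5, siPhf2 and siCtl labels, against 7.28%, 10.8% and 10.2% with vehicle. Relb remained the smallest or next to smallest, at 8.42%, 8.36% and 10.1% with KLA, against 10.3%, 7.97% and 7.22% with vehicle. In the siCtl-labelled KLA library the order per kilobase was Nfkb1, Nfkb2, Rela, Rel and Relb. With these transcript lengths Rel and Rela did not differ there beyond counting error, at a per-kilobase ratio of 0.882 (95% interval 0.763 to 1.02). In the siCtl-labelled vehicle library the order was Rela, Nfkb1, Nfkb2, Rel and Relb, and Relb over Rel was 0.706 (0.433 to 1.13). In the siSmyd5-labelled KLA library Nfkb2 over Rela was 1.05 (0.907 to 1.21), and in the siPhf2-labelled vehicle library Nfkb1 over Rela was 1.09, on 33 and 20 reads, so these neighbours were not separated. In the siSmyd5-labelled vehicle library Relb over Nfkb2 was 0.874 (0.5005 to 1.501) and Relb over Rel 1.41 (0.747 to 2.69), so the 3 lowest could not be ordered. In the siPhf2-labelled KLA library Nfkb1 over Rela was 3.21, while Nfkb2 over Nfkb1 was 0.790 (0.6197 to 1.002), Rel over Rela 0.681 (0.399 to 1.14) and Relb over Rel 0.995 (0.538 to 1.83), so the precursor genes stood above the Rel genes with no order shown within either set. With GENCODE coding lengths in place of transcript lengths, a choice made after seeing the data, Rela took 25.4% with KLA and 53.6% with vehicle under siSmyd5, 15.2% and 30.7% under siPhf2, and 20.1% and 50.4% under siCtl. Rela was then also the largest share in the siPhf2-labelled vehicle library. With coding lengths Nfkb2 took 17.8% in the siSmyd5-labelled KLA library, below Rela at 25.4%. In the siCtl-labelled KLA library Rel took 15.8%, against 20.1% for Rela. No intervals were formed with coding lengths, so the statements above on which genes were separated hold for transcript lengths only.

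**Figure D2:**
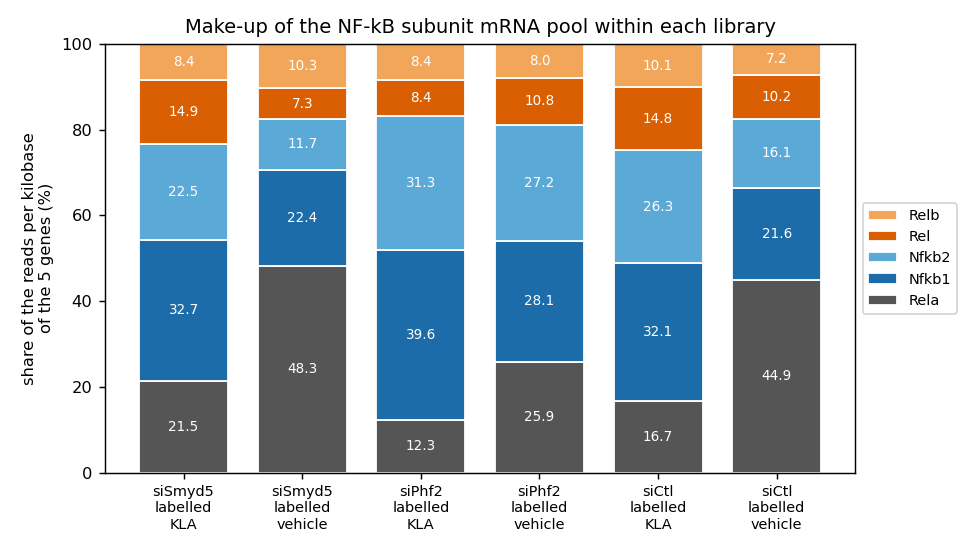
Share (%) of the reads per kilobase of the 5 NF-kB subunit genes taken by each gene, stacked to 100% for each library, KLA left of vehicle within each siRNA label. Rela takes 12.3% to 21.5% in KLA libraries and 25.9% to 48.3% in vehicle libraries, and Nfkb1 is the largest share in each KLA library.

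Set against Rela in the same library, the other 4 genes rose further with KLA under the siSmyd5 and siCtl labels. The ratio of Nfkb1 to Rela was 3.28 times (2.44 to 4.42), 2.94 times (1.45 to 5.91) and 3.98 times (3.15 to 5.04) as high with KLA as with vehicle under siSmyd5, siPhf2 and siCtl. For Nfkb2 the change was 4.30 (2.88 to 6.54), 2.40 (1.12 to 5.13) and 4.39 (3.32 to 5.84). Every one of these 6 intervals excludes equality. For Rel it was 4.59 (2.77 to 7.98), 1.62 (0.575 to 4.90) and 3.87 (2.74 to 5.54), and for Relb 1.84 (1.12 to 3.12), 2.18 (0.668 to 8.48) and 3.74 (2.45 to 5.89). The Rel and Relb intervals under siPhf2, on 5 to 40 reads a library, include equality. Relb against Nfkb1 was lower with KLA under siSmyd5, at 0.562 (0.339 to 0.958), and stood at 0.940 (0.615 to 1.48) under siCtl.

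**Figure D3:**
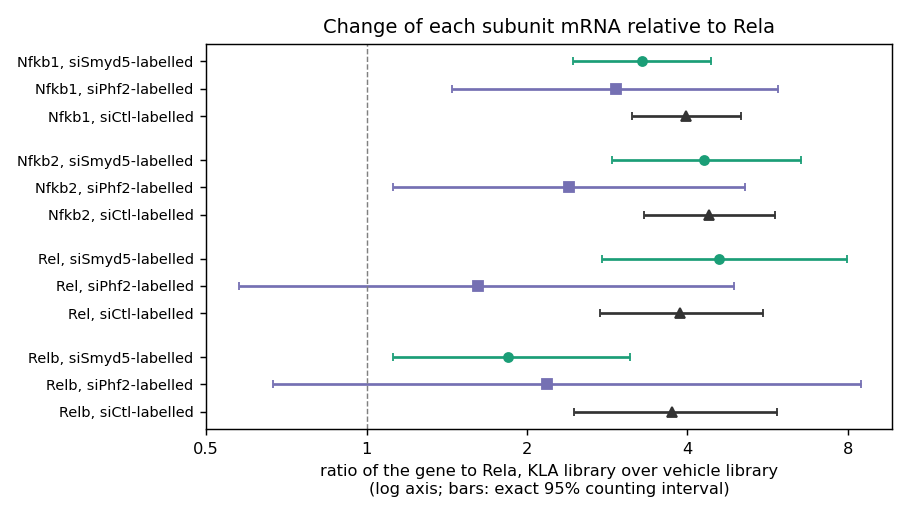
Change with KLA of the ratio of each gene to Rela within a library (log axis), KLA over vehicle, with 1 point per siRNA label and exact 95% counting intervals. Nfkb1 and Nfkb2 lie above 1 under all 3 labels, and the intervals of Rel and Relb cross 1 under siPhf2.

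The siSmyd5 label, aimed at the histone methyltransferase Smyd5, was compared with siCtl, although Smyd5 itself was not lower there with KLA (14.4 against 13.1 CPM) and no direction is drawn from its knockdown. No subunit gene passed: 0 of 5 were called in the edgeR fit averaged over agents, in which 2.71% of all tested genes were called higher, 3.58% lower and 6.29% either way. At an unadjusted p under 0.05 the count was also 0 of 5, against 1886 of all 7995 tested genes. The averaged log2 folds were 0.22 for Rela, 0.03 for Nfkb1, −0.02 for Relb, −0.07 for Rel and −0.29 for Nfkb2, with standard errors of 0.22 to 0.24 and adjusted p from 0.496 to 0.975. A p that misses the threshold does not show that the levels are alike. No member was called by size either, where 2.24% of all genes were called higher and 4.28% lower with KLA, and 2.93% and 5.92% with vehicle.

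With KLA, Rela was 1.38-fold (1.20 to 1.60) of siCtl under the siSmyd5 label, Nfkb1 1.10 (1.004 to 1.20), Rel 1.09 (0.917 to 1.29), Nfkb2 0.921 (0.813 to 1.04) and Relb 0.899 (0.708 to 1.14). With vehicle, Relb was 1.29-fold (0.720 to 2.28), Rela 0.972 (0.782 to 1.21), Nfkb1 0.938 (0.724 to 1.21), Nfkb2 0.661 (0.438 to 0.980) and Rel 0.643 (0.363 to 1.10). The intervals of Rela and Nfkb1 with KLA lie above equality and that of Nfkb2 with vehicle below it, and all 3 ratios are within the 2-fold bound. Relative to Rela in the same KLA library, all 4 other genes were lower under the siSmyd5 label than under siCtl: Nfkb1 at 0.795 (0.670 to 0.944), Nfkb2 at 0.667 (0.550 to 0.807), Rel at 0.786 (0.628 to 0.984) and Relb at 0.651 (0.491 to 0.860). These ratios share the reads of Rela. With vehicle all 4 intervals included equality. Over all tested genes the siSmyd5 ratio moved with transcript length, with a Spearman correlation of −0.470 with KLA and −0.455 with vehicle; with that trend removed, Rela with KLA had a log2 ratio of 0.44, against 0.47 before. The part of transcript length in these ratios was not otherwise tested.

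If the siPhf2 and siCtl names are exchanged, as the header totals would have it, Nfkb1 (log2 fold −1.20, edgeR adjusted p 0.00196) and Nfkb2 (−1.62, 0.000275) pass as lower under the siSmyd5 label. The siSmyd5 result for these genes therefore depends on which name is right, which the deposited values do not settle.

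Under the siPhf2 label, Nfkb2 and Nfkb1 rose 2.52-fold and 2.34-fold over siCtl, averaged over agents. Nfkb2 had a log2 fold of 1.33 (standard error 0.27, edgeR adjusted p 0.00246) and Nfkb1 of 1.23 (0.25, 0.00291). Relb (0.81, adjusted p 0.150), Rel (0.36, 0.536) and Rela (0.27, 0.581) did not pass. So 2 of 5 were called higher and 0 lower, against 8.08% and 4.43% of all tested genes and 12.5% called either way. Phf2 encodes a histone demethylase. No fall of a subunit gene passed in this fit, and no knockdown of Phf2 was seen in TMM-scaled reads, so no direction is drawn from Phf2 itself. The siPhf2 and siSmyd5 comparisons use the same siCtl libraries. If the siPhf2 and siCtl names are exchanged, every siPhf2 direction turns by construction, with Nfkb1 at −1.23 and Nfkb2 at −1.33. Which name is right is not settled by the deposited values.

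With KLA, Nfkb1 was 2.65-fold (2.26 to 3.08) and Nfkb2 2.55-fold (2.07 to 3.12) of siCtl, and both were called higher by size, as were 7.98% of all genes, with 7.35% called lower. Relb stood at 1.78 (1.09 to 2.77), Rela at 1.58 (1.11 to 2.19) and Rel at 1.22 (0.786 to 1.82). With vehicle, Nfkb2 was called, at 2.53-fold (1.53 to 4.04), where 11.0% of all genes were called higher and 8.99% lower; Nfkb1 was just under the bound, at 1.95 (1.30 to 2.84). Relb at 1.65 (0.501 to 4.30), Rel at 1.59 (0.650 to 3.37) and Rela at 0.862 (0.517 to 1.36) had intervals across equality, on 5 to 20 siPhf2 reads.

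**Figure D4:**
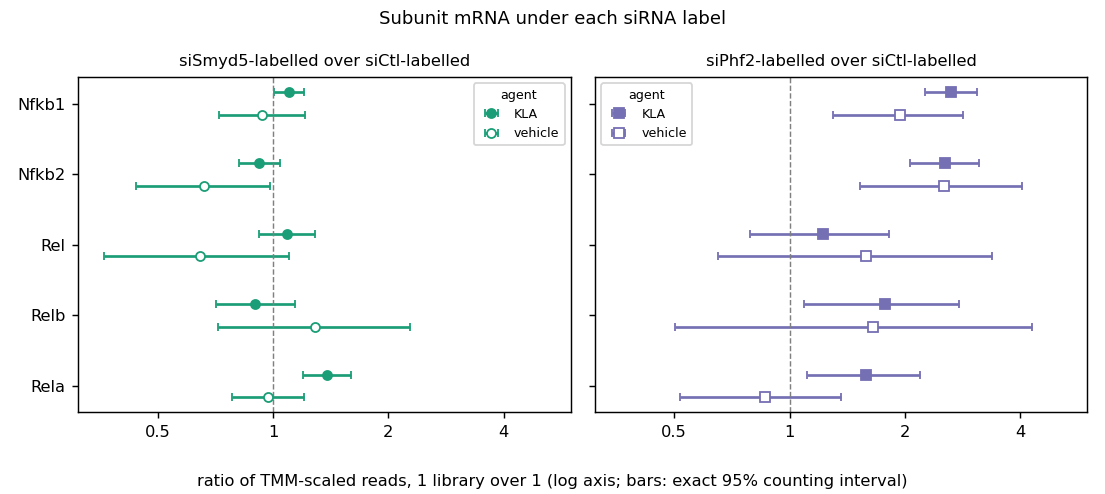
Ratio of TMM-scaled reads (log axis) of each subunit gene under the siSmyd5 label (left panel) and the siPhf2 label (right panel) over the siCtl label, filled with KLA and open with vehicle, with exact 95% counting intervals and 1 library on each side. Nfkb1 and Nfkb2 lie right of 1 under siPhf2 with both agents, and the siSmyd5 ratios lie between 0.643 and 1.38.

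The siPhf2 ratios depend on how the libraries are scaled. Scaled to the library total, Rn45s included, all 5 genes were lower under the siPhf2 label and passed: Nfkb2 at a log2 fold of −0.86, Nfkb1 at −0.96, Relb at −1.39, Rel at −1.85 and Rela at −1.91. The median of all tested genes was then −2.26, against −0.13 with TMM scaling. Relative to that median Nfkb1 stood at 1.30 with the library total and at 1.35 with TMM, and Nfkb2 at 1.40 and 1.46. When Rn45s was removed before totals were formed the median was −0.60, and Nfkb1 (0.76, edgeR adjusted p 0.0336) and Nfkb2 (0.86, 0.0265) stayed past the threshold. Without the siCtl-labelled KLA library Nfkb1 (adjusted p 0.303) and Nfkb2 (0.272) lost their calls, as they did without the siCtl-labelled vehicle library (0.0739 and 0.0759).

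Ratios between the members need no scaling between libraries. Nfkb1 over Rela was 1.67 times (1.16 to 2.46) as high under the siPhf2 label as under siCtl with KLA and 2.25 times (1.21 to 4.30) with vehicle. Nfkb2 over Rela was 1.61 times (1.09 to 2.43) and 2.93 times (1.46 to 5.93) as high. Both precursor genes were thus high relative to Rela under the siPhf2 label with either agent, a direction that exchanged names would turn. With KLA they were also high relative to Rel, at 2.17 (1.41 to 3.46) for Nfkb1 and 2.09 (1.32 to 3.40) for Nfkb2, while with vehicle these intervals included equality. The siPhf2 ratio also moved with transcript length over all genes (Spearman correlation 0.252 with KLA and 0.354 with vehicle), and with that trend removed Nfkb1 had log2 ratios of 1.30 with KLA and 0.76 with vehicle and Nfkb2 of 1.41 and 1.35.

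The summed levels of markers differed under the siPhf2 label. The 10 macrophage markers summed to 5847 and 5392 TMM-scaled CPM in the siPhf2-labelled KLA and vehicle libraries. They summed to 5304 and 5121 in the siSmyd5-labelled ones, and to 4758 and 4160 in the siCtl-labelled ones. The summed level of 5 dendritic cell markers was 586 and 434 TMM-scaled CPM in the siPhf2-labelled KLA and vehicle libraries, against 173 and 129 in the siCtl-labelled ones. Itgax held 78 of the 80 reads with KLA and every read with vehicle, and Flt3 and Siglech were at 0 in every library. This sum therefore stands for Itgax and not for the list. The 6 fibroblast and mesothelium markers summed to 337 and 430 in the siPhf2-labelled libraries, 719 and 649 in the siSmyd5-labelled ones, and 865 and 840.0 in the siCtl-labelled ones. B cell markers summed to 6.71 to 16.6 in the 6 libraries, and T and NK cell, neutrophil, and eosinophil and mast cell markers each to at most 12.2. The part of Itgax and of the macrophage and fibroblast markers in the siPhf2 and siSmyd5 ratios was not tested.

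Around the subunits, KLA raised all 6 tested IkB genes, with a median log2 fold of 4.51. Of all tested genes 11.1% were called higher in this fit and 4.57% lower. Nfkbie (IkB epsilon) rose by 5.49, Nfkbid by 4.95 and Nfkbiz by 4.90; the last 2 encode nuclear IkB proteins. Nfkbia, the classical inhibitor, rose by 4.12 and Bcl3, a coactivator with p50 and p52, by 2.29. Of 12 inflammatory target genes all 12 rose, with a median of 5.48, among them the cytokines Il1b (7.65) and Tnf (6.77) and the neutrophil chemokine Cxcl2 (7.24). Of 11 TRAF, cIAP and deubiquitinase regulators 7 rose and 0 fell (median 1.02), led by the adaptor Traf1 (4.49), the ubiquitin-editing inhibitor Tnfaip3, or A20 (4.18), and its partner Tnip1 (2.02).

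Genes upstream moved less. The IKK list holds 12 genes of the IKK complex and its regulators, of which 10 were tested. Of these 3 rose and 0 fell: Ikbke (1.36), Tank (1.35) and Map3k8, the kinase held by p105 (1.06). Without the siPhf2-labelled libraries 6 of the 10 rose, in a fit that called 14.6% of 8737 tested genes higher and 8.31% lower. The core kinases Chuk (0.49, edgeR adjusted p 0.125) and Ikbkb (0.33, 0.3004) did not pass in the fit of all 6. Of 11 tested TLR4 receptor and adaptor genes 3 rose, the coreceptor Cd14 (1.97), the inhibitory kinase Irak3 (1.63) and the adaptor Myd88 (1.21), and 2 fell, the adaptor Ticam1 (−0.86) and the receptor Tlr4 (−0.75). Of 7 genes for ubiquitin ligase parts that act on p105, p100 and IkB, 0 rose and 1 fell, Fbxw7 (−1.56), which targets p100. Of 13 tested RelA cofactors and terminators 0 rose and 1 fell, Ing4 (−1.14). In the fit of all 6 libraries 11.1% of all tested genes were called higher and 4.57% lower. A single call in so short a list therefore says little about the list.

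**Figure D5:**
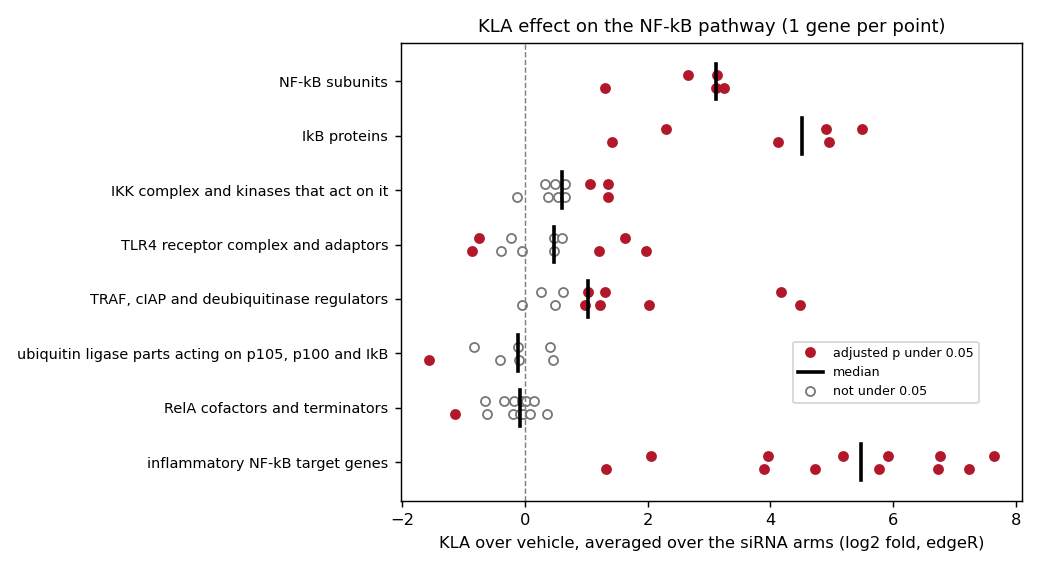
Averaged KLA effect (log2 fold, edgeR) of each tested gene of the NF-kB pathway, 1 point per gene and 1 row per list, with filled points for an adjusted p under 0.05 and a bar at the median of the list. The medians run between 5.48 for the inflammatory targets and −0.11 for the ubiquitin ligase parts, with the 5 subunits at 3.11.

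Under the siSmyd5 label, among the RelA cofactors, Commd1, which ends RelA action, was higher (log2 fold 1.18), and the acetyltransferases Crebbp (−1.06) and Ep300 (−0.75) were lower. Skp1a (0.85) was the 1 of 7 ubiquitin ligase genes called, where 6.29% of all tested genes were called either way. The siSmyd5 ratio moved with transcript length over all tested genes (Spearman correlation −0.470 with KLA and −0.455 with vehicle). That trend was not removed for these list genes, and its part in their calls was not tested. Of all genes 503 were called in this fit, against 14 with DESeq2 and 0 with either limma form. No gene of the IkB, IKK, TLR4, TRAF and target lists was called in the edgeR fit of all 6 libraries. These lists were joined because none held a call, so that absence follows from the choice of lists. Of their 50 tested genes 7 had an unadjusted p under 0.05, as did 1886 of all 7995 tested genes. Without the siPhf2-labelled libraries 11.6% of 8737 tested genes were called higher and 12.2% lower. In that fit 5 of 12 targets were called higher and 1 lower, and 2 of 11 TLR4 genes higher and 1 lower. Of 14 RelA cofactors 1 was called higher and 5 lower, and of 10 genes of the IKK list 1 higher and 1 lower. Of 7 ubiquitin ligase genes 2 were called higher. None of 6 IkB genes, 11 TRAF genes and the 5 subunits was called. Under the siPhf2 label 8.08% of all tested genes were called higher and 4.43% lower. Of 10 tested genes of the IKK list 2 were called higher, Ikbke (1.67) and Ikbkb (1.40). So were 4 of 12 targets, with Il1b (2.84), Nos2 (2.29) and Cd40 (2.08) the largest. With vehicle Il1b had 10 reads under siPhf2 and 0 under siCtl. Cul1, the scaffold of the ligase that acts on IkB, was lower (−1.90), on 5 siPhf2 reads with KLA and 11 with vehicle. These calls use TMM scaling. With the library total 7348 of the 7995 tested genes were called lower under the siPhf2 label. No IkB, TLR4 or TRAF gene passed under the siPhf2 label in the edgeR fit, and these lists were joined because of that. Of their 28 tested genes 7 had an unadjusted p under 0.05, as did 2256 of all 7995 tested genes.

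The genes most alike each subunit were ranked by Pearson correlation of log2 levels over the 6 libraries among 3611 other genes that averaged 50 reads or more; the 6 points share library and depth, and the ranking is a description. Ifit2 (0.997), Slc11a2 (0.996) and Malt1 (0.995) were nearest to Nfkb1, and Tnip1 (0.997), Cflar (0.995) and Irg1 (0.995) to Nfkb2. Nfkbiz (0.998), Slc25a37 (0.998) and Cxcl1 (0.997) were nearest to Rel, and Ccl3 (0.995), Mtmr14 (0.994) and Ifih1 (0.993) to Relb. Tox4 (0.996), Rnf114 (0.995) and Srsf11 (0.994) were nearest to Rela. Among the subunits, Nfkb1 was closest to Relb (0.991) and Nfkb2 (0.990), and Nfkb2 was least like Rela (0.897).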

How the data were processed

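Poly(A) RNA was sequenced from 6 libraries, grouped by their titles and agent labels. Per the labels' protocols, fragmented RNA was tailed, reverse transcribed with barcoded primers, circularized, amplified and run on a Genome Analyzer 2, with no molecular identifiers described. The authors deposited a signal: reads for each RefSeq transcript, brought to 10000000 tags a library, per the file headers. These headers also hold the term cds, so reads may have been counted on coding sequence only. The sources used here do not say. HOMER and mm9 are named without role per the submitters' processing notes; for the aligner and the handling of strand, the sources used here give nothing.

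Whole reads were recovered by dividing each value by 10000000 over a header total, with a tolerance of 0.02. With its own total, each siSmyd5 column came out 100% whole, each siCtl column 2.43%, and the siPhf2 columns 1.13% (vehicle) and 0.761% (KLA). The siCtl and siPhf2 columns came out 100% whole with each other's totals, so names or totals were exchanged in the table; printed names were kept. The table held 29619 transcripts, of which 2 had no symbol.

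Since the deposited unit is not a count, the count test was run on recovered reads, as the design set out for that case. Effects came from an additive fit in edgeR 4.0.16 (R 4.3.3, quasi-likelihood, TMM, 2-sided, Benjamini-Hochberg over 7995 genes, threshold 0.05), checked on simulated data. Alternatives were other scalings and read minimums, DESeq2 1.42.0, limma 3.58.1 on log2 values with 15.4 or 33.1 CPM added, other transcripts and left-out libraries. Ratios of 1 library to 1 carry exact conditional 95% intervals. Beyond the 5 members and the library checks, named genes are up to 3 called members of each list with the largest change per direction and 3 most alike genes; Nfkbia, Bcl3, Chuk, Ikbkb and Itgax were named after their values were seen. Some results on list genes are not reported here. Members and lists were chosen with earlier results of these data known.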

Additional observations from a re-analysis of the deposited data

How the results depend on the processing

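All 5 subunits kept their direction and their call for the averaged KLA effect in all 17 alternatives, with log2 folds of 1.13 to 1.61 for Rela, 2.75 to 3.27 for Nfkb1, 2.511 to 3.35 for Nfkb2, 1.90 to 3.25 for Rel and 1.504 to 2.88 for Relb. For all but Rela the lowest was limma with 33.1 CPM added, which draws low values together; Rela was lowest with the library total. In the siSmyd5 effect 0 of 5 were called in 17 of 18 alternatives; with siCtl and siPhf2 names exchanged 2 were, with Nfkb1 at −1.20. In the siPhf2 effect 5 members were called with the library total, at −0.96 (Nfkb1), −0.86 (Nfkb2), −1.85 (Rel), −1.91 (Rela) and −1.39 (Relb), and 0 to 2 with single libraries left out; names exchanged gave −1.23 for Nfkb1 and −1.33 for Nfkb2. Counts of all genes changed with KLA (1256) were 684 at a mean of at least 50 reads, 613 with DESeq2, 403 and 399 with limma, 2000 without both siPhf2 libraries and 429 to 2125 with single libraries left out. For siSmyd5 (503) they were 225 with the library total, 95 at a mean of at least 50 reads, 14 with DESeq2, 16 with limma-voom, 0 with either limma form (490 and 504 at an unadjusted p under 0.05), 2079 without both siPhf2 libraries, 2021 with names exchanged and 1 to 2317 with single libraries left out. For siPhf2 (1000) they were 7386 with the library total, 1709 with the total without Rn45s, 487 with DESeq2, 642 and 570 with limma and 215 to 1539 with single libraries left out. By size, names exchanged called 2 members in each siSmyd5 contrast. In the siPhf2 contrasts the total without Rn45s called 0 with KLA and 0 with vehicle; the library total called 3 with KLA and 3 with vehicle, all lower, and DESeq2 size factors 2 with vehicle. With the library total all 5 log2 ratios were negative under either agent: with KLA Nfkb1 −0.85, Nfkb2 −0.90, Rel −1.97, Rela −1.59 and Relb −1.43, and with vehicle Nfkb1 −1.11, Nfkb2 −0.73, Rel −1.41, Rela −2.29 and Relb −1.35, of which all but Rela with vehicle (−0.21) were positive with TMM. Exchanging names turns every sign by construction, with Nfkb1 at −1.40 and Nfkb2 at −1.35 with KLA and Nfkb2 at −1.34 with vehicle. The Rela share without length scaling was 18.4% (siSmyd5 KLA), 14.4% (siCtl KLA) and 40.5% (siCtl vehicle), and with coding length 25.4%, 20.1% and 50.4%. The cause was not tested, beyond the change each alternative makes itself. No paired analysis was possible because each group is 1 library and the labels give no replicate numbers. A library left alone in its siRNA arm adds nothing to the spread, which then rests on the other arms. Depth limits Rel and Relb under the siPhf2 label, which have 5 to 26 reads a library.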
